A study of Mus musculus with 28 samples.

Results

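The 10 genes described here encode the proteins that cut and rejoin antigen receptor genes: Rag1, Rag2, Dntt, Xrcc5, Xrcc6, Prkdc, Dclre1c, Lig4, Xrcc4 and Nhej1. They were chosen by symbol as recombinase, terminal transferase and end-joining genes, and all 10 were found among the 24421 symbols of the count table. The RNA of mouse thymocytes was sequenced in 28 libraries of 6 groups, formed by 3 genotypes and 2 sorted subsets. The subsets, DN2/3 and DN4, are earlier and later thymocytes that are double-negative, meaning without surface CD4 and CD8. Each subset had 4 libraries of wild-type C57BL/6 mice and 5 libraries of mice with a transgene for Lmo2, an oncogene of T-cell leukemia whose LIM-only protein bridges transcription factors (Lmo2tg). A further 5 libraries per subset came from mice that carried the same transgene and had lost Ldb1, the LIM domain-binding partner of Lmo2 (labelled Lmo2tg; Ldb1-KO, and Ldb1-KO below). All Ldb1-KO libraries thus also carry the Lmo2 transgene, and no group lacks Ldb1 without it.

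The promoter of the transgene was not given in the sources used here. The growth protocol names Lck-Cre, Rag1-Cre and IL-7Ra-Cre mice. Which Cre line deleted Ldb1 in these libraries, and whether any sample carries a changed Rag1 allele, is not given either. Nothing states that replicates came from separate animals; if they did not, a p-value measures only how much these samples scatter, which may be technical. Wild-type and transgenic libraries were named by different patterns, so a technical difference between the 2 library series and a difference from wild type cannot be told apart.

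V(D)J recombination assembles T cell receptor and immunoglobulin genes from separate V, D and J segments in developing lymphocytes. RAG1 and RAG2 together form the recombinase that cuts DNA at the segment borders, and the broken ends are rejoined by classical non-homologous end joining. The Ku heterodimer holds the ends, DNA-PKcs and Artemis open the hairpins, terminal transferase adds untemplated bases, and XRCC4, XLF and DNA ligase IV seal the joint. In thymocytes the beta, gamma and delta receptor genes are rearranged at the double-negative stages, before cells divide and rearrange the alpha gene as double-positive cells.

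Rag1 and Rag2 lie tail to tail on chromosome 2 of the mouse (GRCm38, the same build as mm10), with 5.8 kb between their ends. Rag1 spans positions 101638282 to 101649501 on the minus strand in 2 exon blocks, and Rag2 spans 101624718 to 101632529 on the plus strand. Lmo2 itself lies on the same chromosome, 2.31 Mb from Rag1. Dntt, which encodes terminal transferase, lies on chromosome 19 from 41029275 to 41059525. The 250 bases before the start of these 3 genes are shown because the recombinase genes had the largest log2 folds and Dntt the highest level, and because Lmo2 and Ldb1 are known to join E-box and GATA factors into 1 complex. The sequences are from RefSeq (GRCm38.p6), written 5′ to 3′ on the gene's strand. Capitals mark the E-box motif CANNTG, the GATA motif GATAA and the Runx motif TGTGGT, each searched on both strands; in Rag1 the third E-box runs into a Runx motif.
Rag1 (chr2:101649533-101649782, minus strand): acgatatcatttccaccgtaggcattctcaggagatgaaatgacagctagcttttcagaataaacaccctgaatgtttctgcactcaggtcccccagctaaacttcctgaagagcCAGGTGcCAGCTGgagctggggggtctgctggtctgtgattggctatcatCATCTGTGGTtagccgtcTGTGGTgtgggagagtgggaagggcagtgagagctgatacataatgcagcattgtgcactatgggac
Rag2 (chr2:101624462-101624711, plus strand): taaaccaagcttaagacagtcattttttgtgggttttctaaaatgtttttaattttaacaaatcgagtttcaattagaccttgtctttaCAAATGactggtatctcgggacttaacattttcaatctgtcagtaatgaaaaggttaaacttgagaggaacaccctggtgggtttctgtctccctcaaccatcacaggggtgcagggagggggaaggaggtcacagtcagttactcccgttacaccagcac
Dntt (chr19:41029025-41029274, plus strand): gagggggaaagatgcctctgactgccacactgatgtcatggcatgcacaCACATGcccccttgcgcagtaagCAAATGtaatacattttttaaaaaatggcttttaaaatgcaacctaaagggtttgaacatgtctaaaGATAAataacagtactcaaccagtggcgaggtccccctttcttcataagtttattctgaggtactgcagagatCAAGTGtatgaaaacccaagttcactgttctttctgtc

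The Rag1 window held 3 E-box motifs, at 135, 128 and 85 bases before the start, and 2 Runx motifs, at 81 and 67 bases. The Rag2 window held 1 E-box motif, at 161 bases, and none of the other motifs. Dntt had 3 E-box motifs, at 201, 178 and 38 bases, and 1 GATA motif at 111 bases. Among all 32851 RefSeq windows of this length, 66.2% held CANNTG, 22.6% held GATAA and 14.0% held TGTGGT, so an E-box motif is common and a Runx motif less so. Entries were found for 9 of the 10 genes, and the match of letters shows neither binding nor use of a site.

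Total counts ran from 28.1 to 106.9 M per library, and no gene of the 10 had fewer than 157 counts in any library. Levels are in CPM (counts per M, with library totals scaled by TMM). The labels were checked with the targeted genes. Lmo2 stood at 0 to 0.41 CPM in wild-type libraries and at 25.3 to 68.9 CPM in the transgenic ones. Ldb1 stood at 247 to 550.4 CPM where it should be intact, at 57.1 to 120.0 CPM in Ldb1-KO DN2/3 and at 6.11 to 54.7 CPM in Ldb1-KO DN4, so transcript remained, more of it at the earlier stage. Il2ra, which marks the DN2 and DN3 stages, was at 1512 ± 140.3 CPM in wild-type DN2/3 and at 39.6 ± 12.2 CPM in wild-type DN4 (SD, n = 4 each). CD4 T cells is the cell type in the labels, but Cd4 was at 0.751 to 1.32 CPM in wild-type DN2/3.

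Compared per kb of exon, the 10 genes covered a wide range of levels. In wild-type DN2/3, Dntt had 1165 ± 91.2 CPM per kb (SD, n = 4), Xrcc6 116 ± 5.47 and Rag1 112 ± 15.6, and the ranges of Xrcc6 and Rag1 overlap within their SD. Rag2 (25.4 ± 5.42 CPM per kb) and Xrcc5 (25.3 ± 1.55) did not differ beyond their spread, and Lig4 followed at 17.6 ± 2.31. At the low end stood Prkdc at 7.63 ± 1.18, Nhej1 at 5.63 ± 0.576, Dclre1c at 4.98 ± 0.613 and Xrcc4 at 3.3 ± 0.342 CPM per kb. Dntt, Xrcc6 and Rag1 were the highest of the 10, in that order, in all 6 groups. Rag2 was the fourth in wild-type DN2/3 and the eighth in Lmo2tg DN2/3, at 4.61 ± 1.83 CPM per kb (n = 5).

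Rag1, the catalytic subunit of the recombinase, was lower in both transgenic genotypes than in wild type at the DN2/3 stage. The 4 wild-type libraries had 600.1, 738, 795 and 837 CPM. The 5 Lmo2tg libraries had 511, 288, 342, 152 and 257 CPM, and the 5 Ldb1-KO libraries had 209, 367, 312, 248 and 283 CPM. Every wild-type library lay above every transgenic one, and the transgenic groups overlapped each other. The log2 fold against wild type was -1.26 (SE 0.340, edgeR adjusted p = 0.00603) in Lmo2tg and -1.39 (SE 0.341, adjusted p = 0.00965) in Ldb1-KO. Between Ldb1-KO and Lmo2tg the log2 fold of Rag1 was -0.13 (SE 0.321, adjusted p = 0.833). The 9 staging markers of early thymocytes also differed between these groups. Their sum in Ldb1-KO lay above that in Lmo2tg and overlapped wild type. It was 4892 to 5298 CPM in wild-type DN2/3, 2589 to 3149 CPM in Lmo2tg DN2/3 and 3782 to 5075 CPM in Ldb1-KO DN2/3, and none of the markers was at 0. Il2ra among them was at 606 to 1000.3 CPM in Lmo2tg DN2/3. Markers of other cells differed as well between wild-type and Lmo2tg DN2/3, with no overlap. The 8 mature T cell markers summed to 741 to 967 CPM in wild type and to 1074 to 1644 CPM in Lmo2tg, with none at 0. The 7 NK and gamma-delta T markers summed to 101 to 119.96 and to 159 to 248 CPM, with Ncr1 at 0 in both groups and Eomes at 0 in wild type, and the 8 myeloid markers to 17.5 to 24.2 and to 3.87 to 12.1 CPM, with Elane at 0 in both. The 11 B cell markers summed to 43.2 to 45.4 and to 15.3 to 32.1 CPM, with Pax5 at 0 in both groups and Ms4a1 and Cd22 at 0 in wild type. Cd8a was at 0.473 to 1.26 CPM in wild type and at 25.6 to 92.7 CPM in Lmo2tg, while the sums of the 8 double-positive markers overlapped (928 to 1118 and 1006 to 1156 CPM). In Ldb1-KO DN2/3 these sums were 945 to 1518 CPM for mature T cells, 93.1 to 183 CPM for NK and gamma-delta T cells, 20.6 to 32.2 CPM for myeloid cells and 31.3 to 38.5 CPM for B cells, with none of the markers at 0. The part of the staging makeup or of other cells in the Rag1 and Rag2 levels was not tested. In bulk samples such as these, fewer cells that express a gene and less RNA per cell cannot be told apart.

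Rag2, the regulatory subunit, fell further than Rag1 in Lmo2tg, and was higher in Ldb1-KO than in Lmo2tg. In DN2/3 the wild-type libraries had 61.6, 85.6, 96.3 and 104 CPM. The Lmo2tg libraries had 23.5, 17.6, 18.8, 8.14 and 10.7 CPM, all below the lowest wild-type and the lowest Ldb1-KO library. The Ldb1-KO libraries had 33.9, 69.7, 42.6, 38.3 and 55.9 CPM, which overlapped wild type in 1 library. The log2 fold of Rag2 was -2.46 in Lmo2tg against wild type (SE 0.352, edgeR adjusted p = 6.17e-06) and 1.60 in Ldb1-KO against Lmo2tg (SE 0.333, adjusted p = 0.00109). Against wild type the Ldb1-KO libraries had a log2 fold of -0.85 (SE 0.341, adjusted p = 0.114), which did not pass with 28 libraries in the fit and passed when the 2 compared groups were fitted alone (adjusted p = 0.0140).

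In DN4 the wild-type libraries had 542, 556, 555 and 619 CPM of Rag1. The Lmo2tg libraries spread from 341 to 1129 CPM (1129, 502, 497, 341 and 346), and the Ldb1-KO libraries from 258 to 853 CPM (280.2, 853, 323, 258 and 383). Without replicate 1 of Lmo2tg and replicate 2 of Ldb1-KO, every transgenic DN4 library lay below every wild-type one. The log2 fold of Rag1 in DN4 was -0.01 in Lmo2tg against wild type (edgeR adjusted p = 0.980) and -0.44 in Ldb1-KO against wild type (adjusted p = 0.333). With those 2 libraries left out, an alternative added after the data were seen, the values were -0.43 (adjusted p = 0.142) and -0.87 (adjusted p = 0.0107).

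These 2 libraries were also the ones with the most Cd4 and Cd8a RNA, genes that mark the double-positive cells which follow DN4 and rearrange the alpha gene. Cd4 was at 422 CPM in replicate 1 of Lmo2tg DN4, against 13.4 to 54.0 CPM in the other 4, and at 329 CPM in replicate 2 of Ldb1-KO DN4, against 23.6 to 97.8 CPM in the others. The wild-type DN4 libraries had 4.08 to 12 CPM of Cd4. The 8 double-positive markers summed to 918 to 1049 CPM in wild-type DN4, to 1123 to 2586 CPM with Lmo2tg and to 1228 to 2816 CPM with Ldb1-KO, and none was at 0. Replicate 1 of Lmo2tg DN4 also had the most B cell marker RNA, a sum of 115.8 CPM over 11 markers against 14.4 to 51.3 CPM in the others of its group. The 8 mature T cell markers summed to 231 to 353 CPM in wild-type DN4, to 588 to 1759.8 CPM with Lmo2tg and to 502 to 729.5 CPM with Ldb1-KO, and none was at 0. The part of double-positive, mature T or B cell RNA in the Rag1 and Rag2 levels was not tested.

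**Figure D1:**
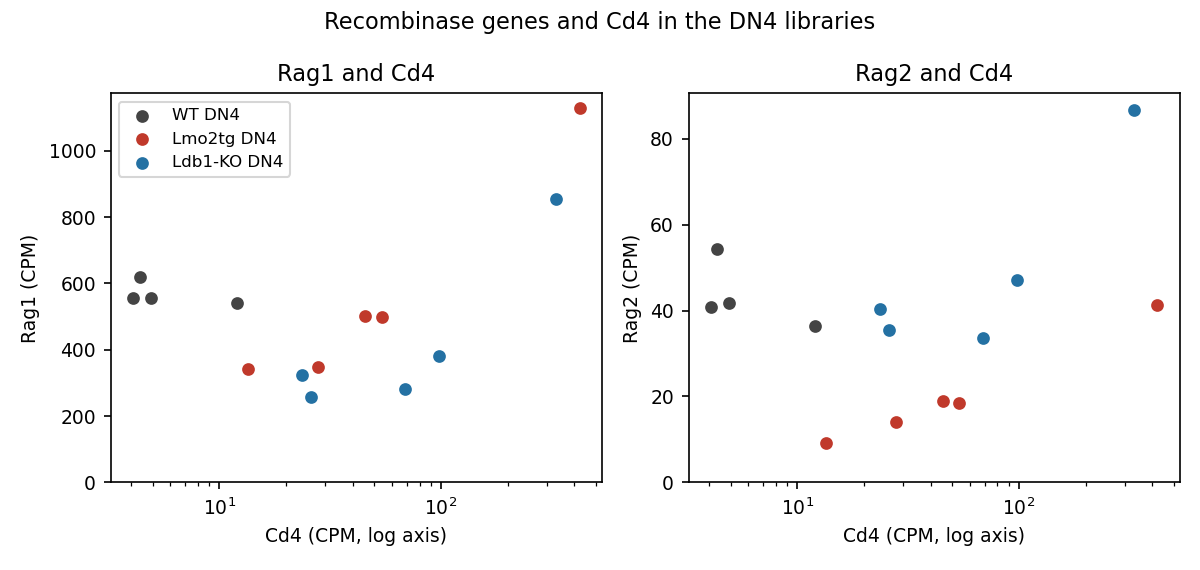
CPM of Rag1 (left) and Rag2 (right) against CPM of Cd4 on a log axis, 1 point per DN4 library (4 wild type, 5 Lmo2tg, 5 Ldb1-KO, the last with the Lmo2 transgene). The libraries with 422 and 329 CPM of Cd4 are the highest of their groups in both panels.

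Rag2 in DN4 was again lowest in Lmo2tg. The wild-type libraries had 36.4, 40.8, 41.8 and 54.3 CPM, the Lmo2tg libraries 41.2, 18.9, 18.4, 9.17 and 14.1 CPM, and the Ldb1-KO libraries 33.5, 86.6, 40.4, 35.4 and 47.0 CPM. Of the Lmo2tg libraries, the Cd4-rich replicate 1 overlapped both other groups and the other 4 lay below them. The log2 fold of Rag2 was -1.09 in Lmo2tg against wild type (SE 0.344, edgeR adjusted p = 0.0105), and -1.51 (adjusted p = 0.000165) without both Cd4-rich libraries. Ldb1-KO exceeded Lmo2tg by 1.25 (SE 0.330, adjusted p = 0.0106), and by 1.37 (adjusted p = 0.00219) without them. That call was lost when replicate 2 of Ldb1-KO DN4 alone was left out (0.94, adjusted p = 0.0602) and when the 2 groups were fitted alone (1.25, adjusted p = 0.0941). Against wild type, Ldb1-KO had a Rag2 log2 fold of 0.17 (SE 0.344, adjusted p = 0.736), and of -0.15 without the Cd4-rich libraries.

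**Figure D2:**
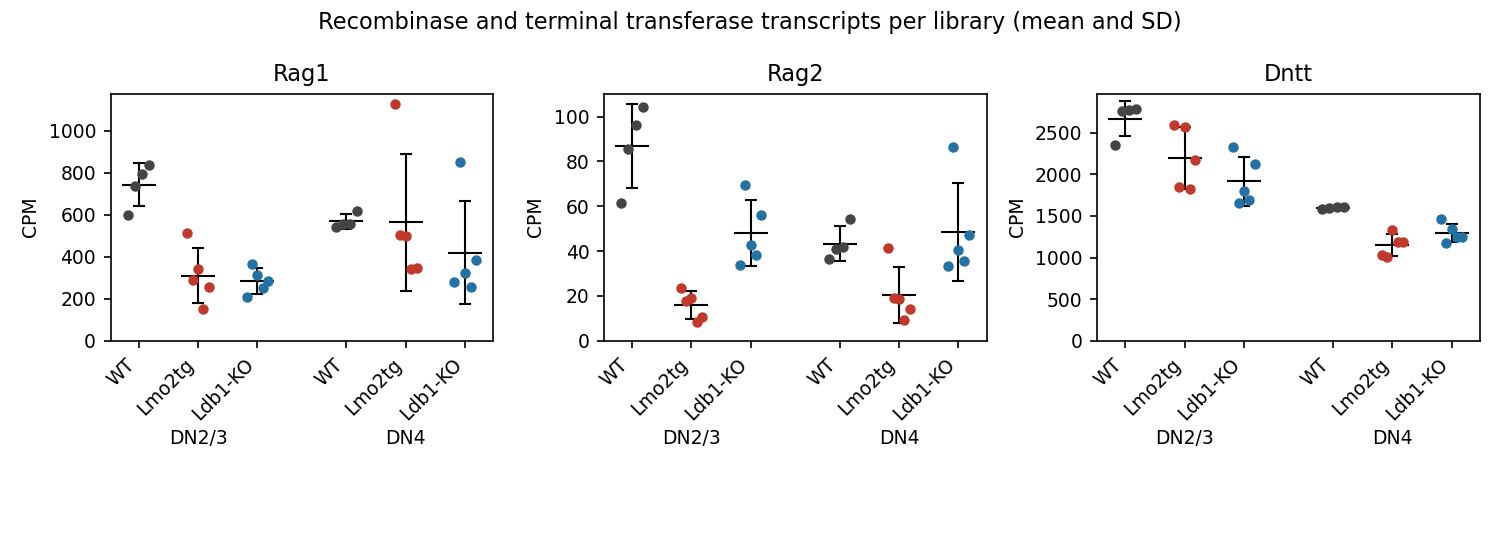
CPM of Rag1, Rag2 and Dntt in each of the 28 libraries, by genotype and stage (points), with the group mean and SD (bars). Ldb1-KO libraries also carry the Lmo2 transgene. Rag2 was lowest in Lmo2tg at both stages, and Dntt was lower in DN4 than in DN2/3 in every genotype.

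The unequal change of the 2 recombinase genes shows in their ratio within a library, which does not depend on the scaling between libraries. Per kb of exon, Rag1 exceeded Rag2 by 5.05, 4.47, 4.27 and 4.16 times in the wild-type DN2/3 libraries. In Lmo2tg DN2/3 the ratio was 11.3, 8.47, 9.41, 9.71 and 12.4, and in Ldb1-KO DN2/3 it was 3.19, 2.73, 3.79, 3.36 and 2.62. The 3 genotypes did not overlap: Lmo2tg was above wild type and Ldb1-KO was below it. DN4 gave the same order, with 5.91 to 7.73 in wild type, 12.7 to 19.3 in Lmo2tg and 3.77 to 5.1 in Ldb1-KO. Here the Cd4-rich libraries did not stand at an end for Lmo2tg (14.2), while the Ldb1-KO one had the highest ratio of its group (5.1). Within each genotype the ratio was higher in DN4, as 6.90 ± 0.750 against 4.49 ± 0.396 in wild type (SD, n = 4 each), and in wild type and Lmo2tg the stages did not overlap. The ratios are a description and were not tested.

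The exons of Rag2 and Rag1 overlap those of B230118H07Rik, also called Iftap, which lies between and across them. It shares 208 bases with Rag2 on the opposite strand and 80 bases with Rag1 on the same strand, 6.1% and 1.2% of their exon lengths. Whether counting used the strand was not given in the sources used here, so reads from the overlap could be counted for either gene. In DN2/3, Iftap ranged from 4.93 to 9.12 CPM with the wild-type genotype and from 1.77 to 4.6 CPM with Lmo2tg. It was lower in Lmo2tg than in wild type at both stages, with log2 folds of -1.37 (edgeR adjusted p = 0.00216) in DN2/3 and -1.37 (adjusted p = 0.00131) in DN4, and its log2 fold in Ldb1-KO against Lmo2tg in DN2/3 was 0.36 (adjusted p = 0.479). Among the 5 genes taken as neighbours of the Rag locus, 1 was higher (Traf6) and 1 was lower (Iftap) in Lmo2tg DN2/3 than in wild type. Of all genes, 15.1% were higher and 14.4% lower in that comparison.

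**Figure D3:**
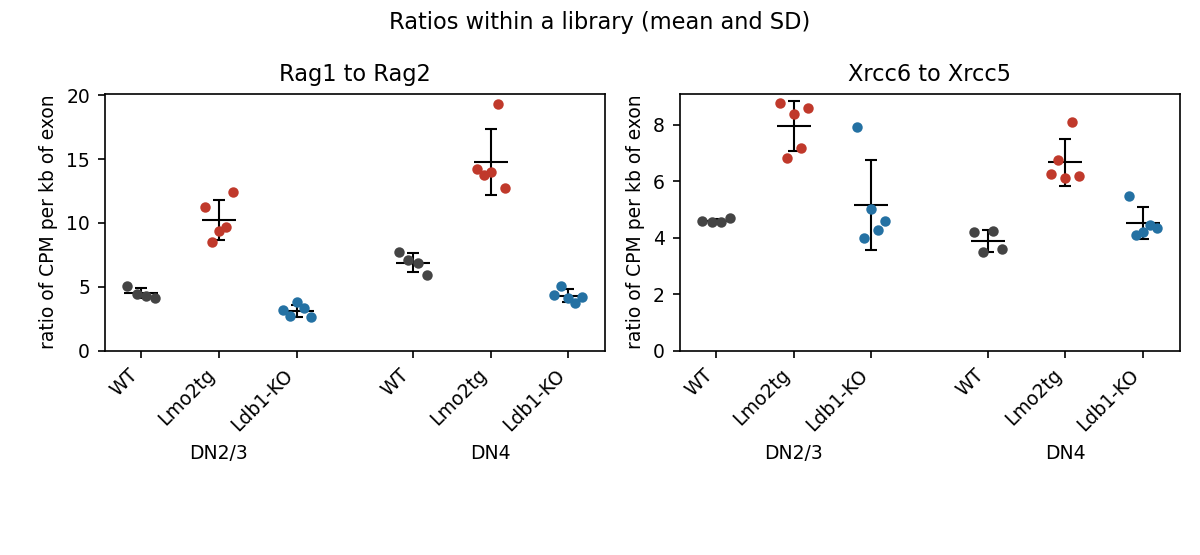
Ratio of Rag1 to Rag2 (left) and of Xrcc6 to Xrcc5 (right), as CPM per kb of exon within each library, by genotype and stage, with group mean and SD. The Rag1 to Rag2 ratio was 8.47 to 12.4 in Lmo2tg DN2/3, 4.16 to 5.05 in wild type and 2.62 to 3.79 in Ldb1-KO, which also carries the transgene.

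The stage comparison asked how the genes differ between DN2/3 and DN4 within a genotype. Same-numbered libraries of the 2 stages deviated together within each genotype, though no label states a pairing. Calls that a fit with the pair as a block adds are therefore given too. Rag1 was lower in DN4 than in DN2/3 in 4 of 4 wild-type pairs and higher in 5 of 5 Lmo2tg and 5 of 5 Ldb1-KO pairs. Its log2 fold, DN4 minus DN2/3, was -0.39 (edgeR adjusted p = 0.397) in wild type, 0.86 (0.0727) in Lmo2tg and 0.56 (0.203) in Ldb1-KO. None of these passed in the fit of all 28 libraries without the block. The wild-type fall passed when the 2 groups were fitted alone. The Lmo2tg rise passed in DESeq2, and without replicate 1 of DN2/3 or replicate 4 or 5 of DN4. With the block, all 3 passed: -0.38 (adjusted p = 0.0472), 0.82 (adjusted p = 0.000465) and 0.43 (adjusted p = 0.0192). Rag2 fell in wild type by 1.00 on the log2 scale (SE 0.365, adjusted p = 0.0265), in 4 of 4 pairs; the call was lost in 5 of 8 fits that left out 1 library, replicate 3 or 4 of DN2/3 or replicate 1, 2 or 3 of DN4 (adjusted p up to 0.0783). In Lmo2tg its log2 fold was 0.36 (adjusted p = 0.490), or 0.29 with the block (adjusted p = 0.0433), and in Ldb1-KO it was 0.02 (adjusted p = 0.978). Without the Cd4-rich libraries and without the block, Rag2 had -0.06 and Rag1 0.44 (adjusted p = 0.212) in Lmo2tg, and Rag1 had 0.13 (adjusted p = 0.719) in Ldb1-KO.

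The difference of the Lmo2tg effect between stages was tested directly. For Rag2 the effect was -2.46 in DN2/3 and -1.09 in DN4, so the fall was smaller in DN4. The difference, DN4 minus DN2/3, was 1.37 on the log2 scale (SE 0.489, edgeR adjusted p = 0.0414). For Rag1 the effect was -1.26 and -0.01. Its difference was 1.25 (SE 0.483, adjusted p = 0.0575), which passed with the block (1.19, adjusted p = 0.000317). The Rag2 call was lost in 11 of 18 fits that left out 1 library, the lowest value being 0.94 (adjusted p = 0.121) without replicate 1 of Lmo2tg DN4. The Ldb1-KO effect on Lmo2tg did not differ detectably between stages for either gene, at -0.35 for Rag2 (SE 0.460, adjusted p = 0.771) and -0.30 for Rag1 (SE 0.454, adjusted p = 0.801).

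Dntt, whose terminal transferase adds untemplated bases at V(D)J joints, was the most abundant of the 10 and fell from DN2/3 to DN4 in every genotype. Wild-type DN2/3 libraries had 2357, 2759.9, 2773 and 2791 CPM, and wild-type DN4 libraries 1580.4, 1593, 1605 and 1612 CPM. Lmo2tg went from 2589.9, 1845, 2574, 1820.0 and 2169.9 CPM to 1029.9, 1002, 1328, 1189.6 and 1184 CPM. Ldb1-KO went from 2329, 1659, 1796, 1689 and 2123 CPM to 1458, 1178, 1338, 1250.1 and 1243 CPM. The stages did not overlap in any genotype. The log2 fold was -0.74 in wild type (SE 0.125, edgeR adjusted p = 4.63e-05), -0.94 in Lmo2tg (SE 0.112, adjusted p = 6.80e-06) and -0.57 in Ldb1-KO (SE 0.111, adjusted p = 0.00044).

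Between genotypes the differences of Dntt were small. In DN2/3 it was lower in Ldb1-KO than in wild type, by -0.48 (SE 0.117, edgeR adjusted p = 0.00958) with no overlap, while Lmo2tg had -0.28 (SE 0.117, adjusted p = 0.0747). In DN4 it was lower than in wild type in Lmo2tg, at -0.48 (SE 0.117, adjusted p = 0.00161), and in Ldb1-KO, at -0.30 (SE 0.117, adjusted p = 0.0478). The last call was lost in 8 of the 9 fits that left out 1 library, every one but that without replicate 1 of Ldb1-KO (adjusted p up to 0.108). Ldb1-KO and Lmo2tg gave log2 folds of -0.20 (adjusted p = 0.253) in DN2/3 and 0.17 (adjusted p = 0.335) in DN4.

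Xrcc5 and Xrcc6 encode Ku80 and Ku70, the subunits of the Ku heterodimer that first binds a broken end. In Lmo2tg, Xrcc6 was called higher than in wild type in DN2/3 and Xrcc5 was called lower in DN4. The stage difference of the Lmo2tg effect passed for neither in the fit of all 28 libraries without a block (edgeR adjusted p = 0.108 for Xrcc5 and 0.211 for Xrcc6). In DN2/3 the wild-type libraries had 534, 538, 526 and 485 CPM of Xrcc6. The Lmo2tg libraries had 783, 779, 758, 735 and 582 CPM, with no overlap. Its log2 fold was 0.48 (SE 0.154, edgeR adjusted p = 0.0186), and without replicate 4 of wild type it was 0.45 (adjusted p = 0.0570). Ldb1-KO DN2/3 had 695, 495, 568, 435 and 463 CPM of Xrcc6, lower than Lmo2tg by -0.45 (SE 0.144, adjusted p = 0.0297), and that call was lost in 7 of the 10 fits that left out 1 library (replicates 1 to 4 of Lmo2tg and 2, 4 and 5 of Ldb1-KO; adjusted p up to 0.0838). In DN4, Xrcc6 spread from 418 to 859 CPM in Lmo2tg around the wild-type 521 to 619 CPM (log2 fold 0.12, adjusted p = 0.535).

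Xrcc5 was lower in Lmo2tg than in wild type in DN4. In DN2/3 its log2 fold in that comparison was -0.29 (SE 0.129, edgeR adjusted p = 0.0991), which passed without replicate 2 of Lmo2tg (adjusted p = 0.0347). Wild-type DN4 libraries had 78.1, 86.5, 83.7 and 82.3 CPM, Lmo2tg 48.2, 58.0, 51.7, 60.6 and 38.6 CPM, and Ldb1-KO 61.0, 72.6, 75.8, 61.0 and 61.1 CPM. No library of a group overlapped those of another, and Ldb1-KO lay between wild type and Lmo2tg. The log2 fold was -0.68 in Lmo2tg against wild type (SE 0.129, edgeR adjusted p = 0.000138) and 0.37 in Ldb1-KO against Lmo2tg (SE 0.123, adjusted p = 0.0447). The second was lost without both Cd4-rich libraries (0.31, adjusted p = 0.187) and in 6 of the 10 fits that left out 1 library (replicates 1, 3 and 5 of Lmo2tg and 1, 2 and 3 of Ldb1-KO; adjusted p up to 0.137). From DN2/3 to DN4, Xrcc5 rose in wild type by 0.35 (SE 0.137, adjusted p = 0.0367), higher in 4 of 4 pairs, a call lost in 7 of 8 fits that left out 1 library, every one but that without replicate 1 of DN4 (adjusted p up to 0.101). Lmo2tg had -0.04 (adjusted p = 0.854). Ldb1-KO had 0.14 (adjusted p = 0.429), which passed with the block (adjusted p = 0.0408).

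Within a library, Xrcc6 exceeded Xrcc5 per kb by 4.55 to 4.71 times in wild-type DN2/3 and by 6.81 to 8.78 times in Lmo2tg DN2/3. In DN4 the ranges were 3.49 to 4.22 and 6.11 to 8.09. Ldb1-KO had 3.99 to 7.92 in DN2/3, where replicate 1 alone fell in the Lmo2tg range, and 4.11 to 5.49 in DN4. Xrcc6 shares 344 exon bases, 7.7% of its length, with Desi1 on the opposite strand. Desi1 had a log2 fold of 0.03 (edgeR adjusted p = 0.898) in Lmo2tg DN2/3 against wild type.

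Prkdc encodes DNA-PKcs, the kinase that Ku recruits and that activates Artemis. Wild-type DN2/3 libraries had 77.9, 107, 105 and 113 CPM, Lmo2tg ones 90.0 to 125 CPM, and none of the 3 genotype comparisons passed at that stage. In DN4 the wild-type libraries had 66.2, 85.4, 70.8 and 84.5 CPM. The Lmo2tg libraries had 106, 109.8, 137, 70.2 and 88.6 CPM, of which 1 overlapped wild type. That rise, a log2 fold of 0.41 (SE 0.157, edgeR adjusted p = 0.0293), was lost when the 2 groups were fitted alone (adjusted p = 0.101) and in 5 of the 9 fits that left out 1 library (replicates 1 and 3 of wild type and 1, 2 and 3 of Lmo2tg; adjusted p up to 0.117). The stage difference in wild type was -0.39 (adjusted p = 0.0540), and with the block it passed (adjusted p = 0.000775), lower in 4 of 4 pairs.

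Prkdc starts 466 bases from Mcm4, a replicative helicase subunit transcribed in the opposite direction. Mcm4 rose from 316 to 341 CPM in wild-type DN2/3 to 601 to 623 CPM in wild-type DN4 (log2 fold 0.90, SE 0.201, edgeR adjusted p = 0.000809), while Prkdc had the lower values in DN4. In Lmo2tg DN4 against wild type, Mcm4 fell by 0.61 on the log2 scale (adjusted p = 0.00902). Lig4 starts 21 bases from Abhd13 and Xrcc4 485 bases from Tmem167. In DN4, Abhd13 was higher in Lmo2tg than in wild type by 0.51 (SE 0.115, adjusted p = 0.000817) and higher in Ldb1-KO by 0.46 (SE 0.115, adjusted p = 0.00502). Tmem167, which shares 112 exon bases with Xrcc4 on the opposite strand (2.7% of the exon length of Xrcc4), passed in none of the 12 comparisons.

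Dclre1c encodes Artemis, the nuclease that opens hairpin ends. In wild type it fell from 38.1, 48.0, 48.8 and 50.9 CPM in DN2/3 to 26.4, 28.8, 22.5 and 26.3 CPM in DN4, with no overlap (log2 fold -0.84, SE 0.245, edgeR adjusted p = 0.0071). No such fall was called in the transgenic genotypes: Lmo2tg had 0.23 (adjusted p = 0.509) and Ldb1-KO -0.01 (adjusted p = 0.972). In Lmo2tg the libraries spread widely, at 50, 24.2, 30.3, 21.7 and 34.6 CPM in DN2/3 and 59.7, 28.4, 46.0, 20.0 and 35.2 CPM in DN4. Ldb1-KO DN4 libraries had 39.6, 53.2, 43.8, 31.1 and 36.0 CPM, all above wild-type DN4 (0.65, SE 0.234, adjusted p = 0.0356), a call lost without both Cd4-rich libraries (0.54, adjusted p = 0.0616) and in 7 of 9 fits that left out 1 library, every one but those without replicates 4 and 5 of Ldb1-KO (adjusted p up to 0.116). Lmo2tg against wild type gave Dclre1c log2 folds of -0.53 in DN2/3 (adjusted p = 0.0865) and 0.54 in DN4 (adjusted p = 0.0525). Neither was called in the fit of all 28 libraries. The difference of these effects, DN4 minus DN2/3, was 1.07 (SE 0.327, adjusted p = 0.0206). It kept its call without the Cd4-rich libraries (0.85, adjusted p = 0.0474) and lost it without replicate 3 of wild-type DN4 or replicate 1 of Lmo2tg DN4 (adjusted p up to 0.0527) and when only the 4 groups concerned were fitted (1.06, adjusted p = 0.0612). Dclre1c shares 357 exon bases, 3.8% of its length, with Suv39h2 on the opposite strand. Suv39h2 was higher in DN4 than in DN2/3 in wild type (log2 fold 0.48, edgeR adjusted p = 0.0106). In DN4 it was lower in Lmo2tg than in wild type (-0.56, adjusted p = 0.00202) and higher in Ldb1-KO than in Lmo2tg (0.49, adjusted p = 0.0134).

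Lig4, Xrcc4 and Nhej1 encode DNA ligase IV, its partner XRCC4 and XLF, the proteins of the sealing step. In DN2/3 none of the 3 passed in any genotype comparison in the fit of all 28 libraries. There Xrcc4 had a log2 fold of 0.32 in Ldb1-KO against Lmo2tg (edgeR adjusted p = 0.0693). It passed in DESeq2 (0.33, adjusted p = 0.0349). In edgeR it also passed without replicate 2 of Lmo2tg (adjusted p = 0.0253) or replicate 4 of Ldb1-KO (adjusted p = 0.0294). In DN4, the wild-type libraries had 72.1, 84.6, 67.7 and 77.5 CPM of Lig4. The Lmo2tg libraries had 113, 90.0, 137, 82.4 and 108 CPM, and the Ldb1-KO libraries 102, 102, 128, 86.8 and 78.1 CPM. It was higher than wild type in Lmo2tg, by 0.49 (SE 0.15, edgeR adjusted p = 0.00841), and in Ldb1-KO, by 0.40 (SE 0.15, adjusted p = 0.0444). Each transgenic group overlapped wild type in 1 library. Without both Cd4-rich libraries the first was 0.47 (adjusted p = 0.0224) and the second 0.38 (adjusted p = 0.0776). The second was also lost in 6 of 9 fits that left out 1 library (replicates 1, 3 and 4 of wild type and 1, 2 and 3 of Ldb1-KO; adjusted p up to 0.148).

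Xrcc4 was low throughout, at 9.28 to 17.8 CPM. In DN4 the wild-type libraries had 12.6, 12.6, 11.8 and 12.4 CPM, and the Ldb1-KO libraries 15.5, 17.4, 17.1, 14.0 and 16.9 CPM, with no overlap (log2 fold 0.39, SE 0.129, edgeR adjusted p = 0.0242). That call was lost without both Cd4-rich libraries (0.36, adjusted p = 0.0505) and in 6 of 9 fits that left out 1 library (replicates 1, 3 and 4 of wild type and 2, 3 and 5 of Ldb1-KO; adjusted p up to 0.0814). Nhej1, the lowest of the 10 in CPM, had 3.99 to 7.94 CPM over all libraries. It passed once in the fit of all 28 libraries without a block, lower in Lmo2tg DN4 than in wild type by -0.37 (SE 0.137, adjusted p = 0.0259). That call was lost when the 2 groups were fitted alone (adjusted p = 0.161) and without replicate 1 of wild type or of Lmo2tg (adjusted p up to 0.0847). In DESeq2, Nhej1 was also called lower in Ldb1-KO DN4 than in wild type (adjusted p = 0.0451).

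**Figure D4:**
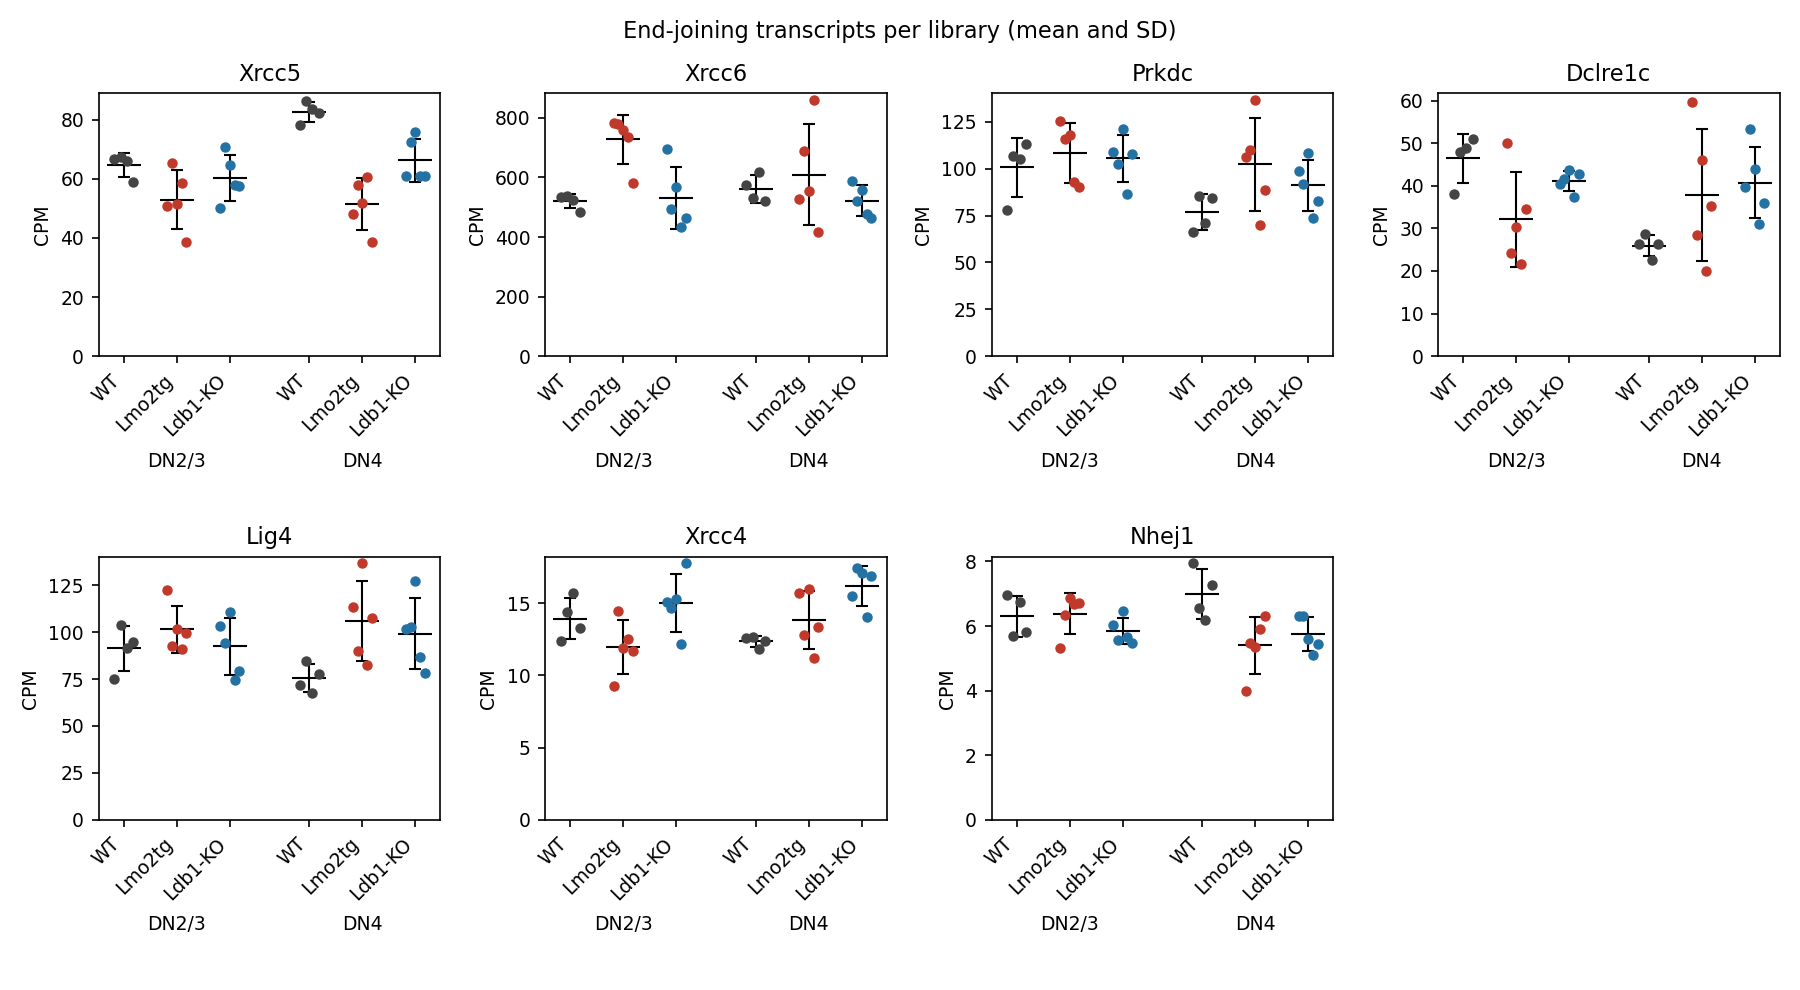
CPM of the 7 end-joining genes in each of the 28 libraries, by genotype and stage, with group mean and SD. Xrcc5 in DN4 was 78.1 to 86.5 CPM in wild type and 38.6 to 60.6 CPM in Lmo2tg. Ldb1-KO libraries also carry the Lmo2 transgene.

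Counted over the 10 genes, the share that passed is to be read against the share of all 14371 tested genes that passed in the same comparison. In DN2/3, Lmo2tg against wild type gave 1 gene higher and 2 lower, where 29.5% of all genes were called (15.1% higher, 14.4% lower). The groups did not overlap for 3 of the 10, as for 28.4% of all genes. Ldb1-KO against Lmo2tg gave 1 higher and 1 lower, where 16.1% of all genes were called (8.87% higher, 7.22% lower), and 1 of the 10 did not overlap (12.7% of all genes). Ldb1-KO against wild type gave 2 lower, where 9.56% were called (6.98% higher, 2.58% lower), and 2 did not overlap (21.3% of all genes).

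In DN4, Lmo2tg against wild type gave 2 higher and 4 lower, where 52.4% of all genes were called (28.9% higher, 23.5% lower), so 6 of 10 is near the background. The groups did not overlap for 2 of the 10 (30% of all genes). Ldb1-KO against Lmo2tg gave 2 higher, where 14.6% were called (5.85% higher, 8.71% lower), and 1 did not overlap (7.13% of all genes). Ldb1-KO against wild type gave 3 higher and 1 lower, where 32.6% were called (18.2% higher, 14.4% lower), and 4 did not overlap (33.1% of all genes). Without both Cd4-rich libraries these DN4 counts were 4, 1 and 1, where 45.6%, 10.1% and 27.2% of all genes were called. In the last comparison, leaving out 1 library at a time gave 0 to 3 genes, beside 2855 to 5028 of all genes.

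DN4 against DN2/3 in wild type gave 1 higher and 3 lower, where 46% of all genes were called (21.1% higher, 24.8% lower), and 4 did not overlap (54.2% of all genes). Lmo2tg gave 1 lower, where 15.4% were called (8.32% higher, 7.04% lower), and 1 did not overlap (4.48%). Ldb1-KO gave 1 lower, where 28.1% were called (12.3% higher, 15.8% lower), and 1 did not overlap (23.7%). With the pairs as a block the counts were 7, 4 and 4, where 62.1%, 38.8% and 48.2% of all genes were called, so these counts too are near the background. Calls that the block added and that are not given above were Lig4 in wild type (-0.27, adjusted p = 0.0121, lower in 4 of 4 pairs), Xrcc6 in Lmo2tg (-0.29, adjusted p = 0.0200) and Prkdc in Ldb1-KO (-0.21, adjusted p = 0.0260, lower in 5 of 5 pairs).

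The stage difference of the Lmo2tg effect passed for 2 genes, both higher (25.6% of all genes called, 14.7% higher and 11% lower), or for 8 with the block, where 49.4% of all genes were called. Beside Rag1, Rag2 and Dclre1c, the block called Prkdc (0.28, adjusted p = 0.0473) and Lig4 (0.32, adjusted p = 0.0308) higher. It called Xrcc5 (-0.39, adjusted p = 0.000984), Xrcc6 (-0.40, adjusted p = 0.0247) and Nhej1 (-0.40, adjusted p = 0.0360) lower. The stage difference of the Ldb1-KO effect on Lmo2tg passed for 0 of the 10 in edgeR and 0 in DESeq2, with 1 at an unadjusted p below 0.05 (1.36% of all genes called, 0.132% higher and 1.22% lower). With the block 1 passed, Dntt (0.37, adjusted p = 0.0451), where 13.5% of all genes were called. That of Ldb1-KO against wild type passed for 0 in both tools, with 2 at an unadjusted p below 0.05 (0.216% of all genes called, 0.181% higher and 0.0348% lower). With the block 4 passed, where 19.6% of all genes were called: Rag2 (0.97, adjusted p = 0.00131), Dclre1c (0.80, adjusted p = 0.00430), Rag1 (0.81, adjusted p = 0.0163) and Lig4 (0.37, adjusted p = 0.0362). The median log2 fold of the 10 lay between -0.33 (stage, wild type) and 0.32 (stage difference of the Lmo2tg effect), beside medians of all genes of -0.06 and 0.08.

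**Figure D5:**
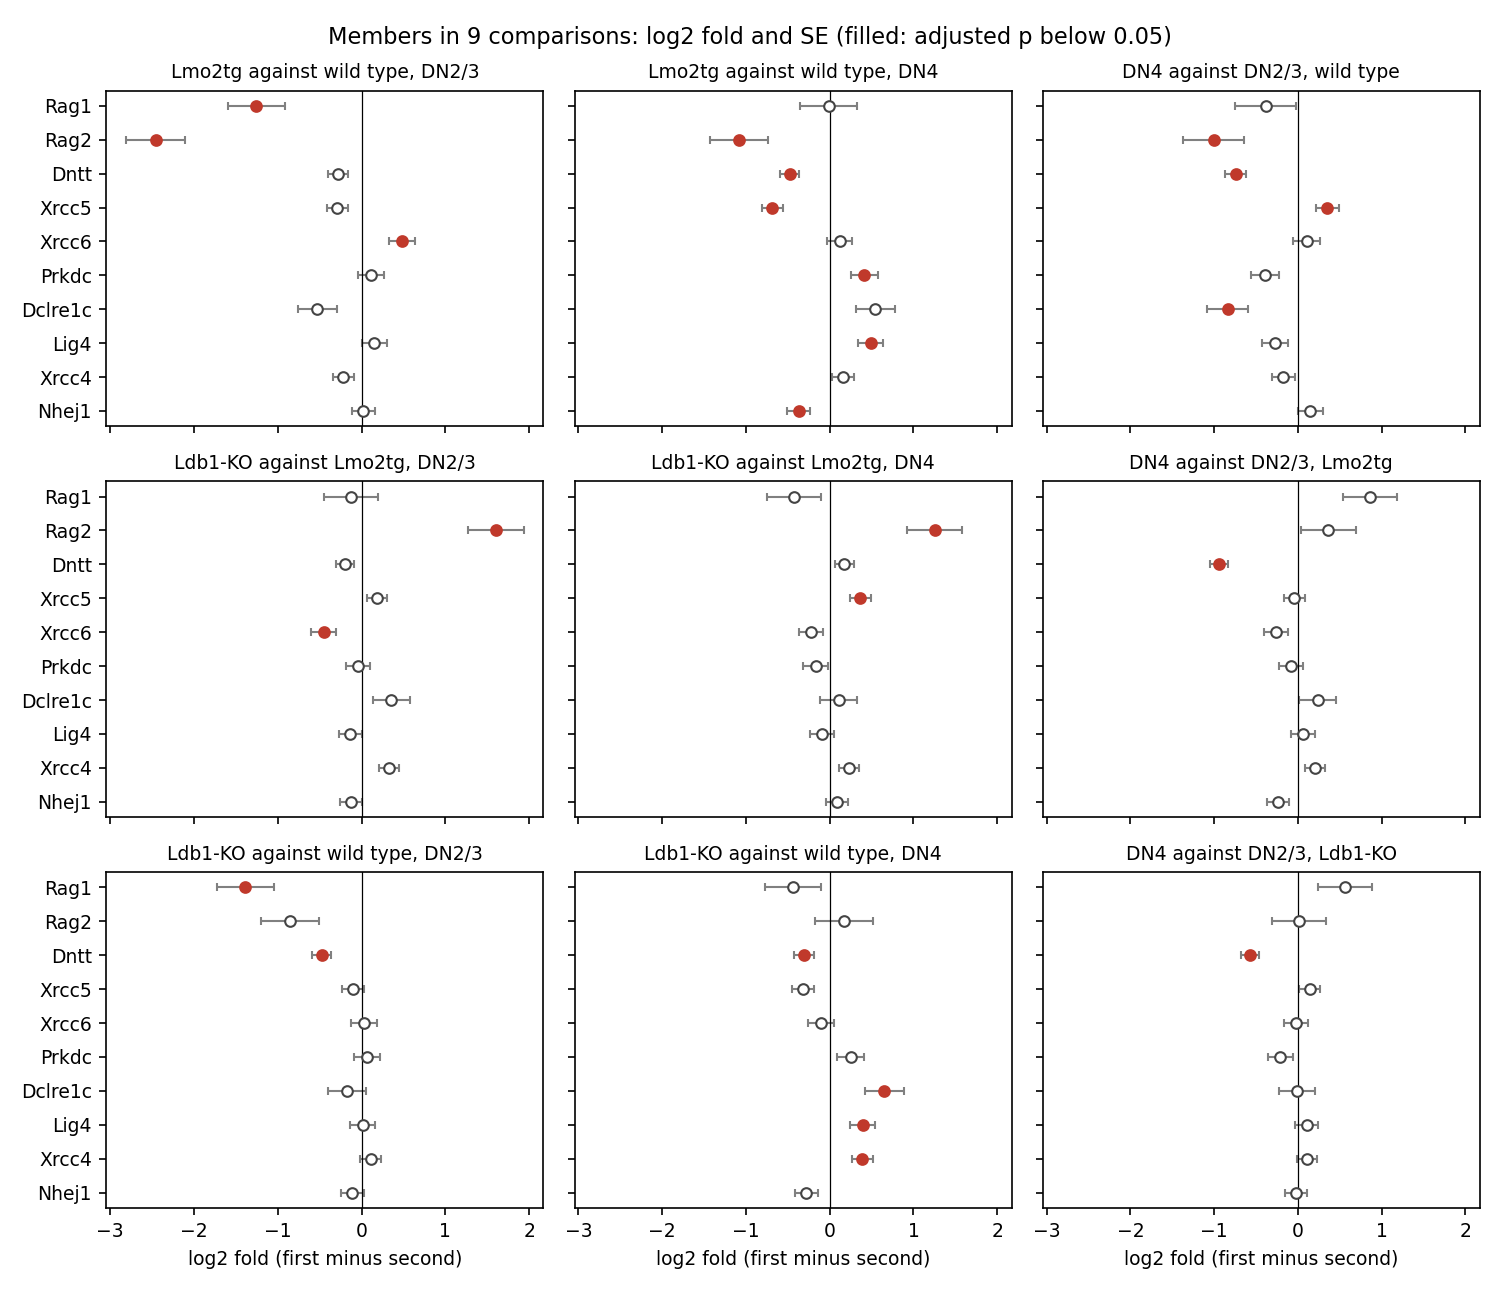
Log2 fold (first group minus second) with its SE for the 10 genes in 9 comparisons. Filled points have an edgeR adjusted p below 0.05. Ldb1-KO libraries also carry the Lmo2 transgene. Rag2 has the largest log2 folds in Lmo2tg against wild type (-2.46) and in Ldb1-KO against Lmo2tg (1.60), both in DN2/3.

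Genes of other repair routes were counted in the same way. Between the stages of wild type, where 21.1% of all genes were higher in DN4 and 24.8% lower, homologous recombination genes, which repair breaks from a sister copy, were higher for 9 of 14 and lower for 1. Rad54l, a helper of strand exchange, went from 37.6 ± 2.42 to 82.0 ± 6.25 CPM (SD, n = 4 each; log2 fold 1.13, edgeR adjusted p = 4.91e-05). Alternative end joining, the back-up route that uses short homologies, had 6 of 7 higher, among them Polq at 36.4 ± 1.23 and 80.1 ± 3.27 CPM (1.14, adjusted p = 0.000401). Of the break-sensing genes, 7 of 12 were higher and 1 was lower (Trp53bp1, -0.57), and of the accessory end-joining genes 4 of 10 were higher and 2 lower. All 20 cell cycle genes were higher. Of the 10 genes of the core, 1 was higher and 3 were lower. The median log2 fold was 0.88 for homologous recombination, 0.94 for alternative end joining, 1.42 for the cell cycle genes and -0.33 for the 10, and -0.06 for all genes tested.

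In DN4, Lmo2tg against wild type gave lower calls in these lists, where 28.9% of all genes were higher and 23.5% lower. Homologous recombination had 12 of 14 genes lower and none higher, with Palb2 (-0.78, edgeR adjusted p = 1.32e-05), Xrcc2 (-1.0, adjusted p = 2.07e-05) and Rad54l (-0.97, adjusted p = 0.000102) the firmest. Alternative end joining had 6 of 7 lower, led by Parp2 (-0.60, adjusted p = 4.24e-07), break sensing 7 of 12 and the cell cycle 17 of 20. Of the accessory end-joining genes, 3 of 10 were lower and 1 was higher. The summed cell cycle level was 3859 to 10327 CPM in Lmo2tg DN4 and 10699 to 11938 CPM in wild-type DN4. Its part in these differences was not tested. In Ldb1-KO DN4, 7 of 14 homologous recombination genes and 7 of 20 cell cycle genes were higher than in Lmo2tg, where 5.85% of all genes were higher, with Xrcc2 at 23.5 ± 2.12 against 14.4 ± 3.08 CPM (SD, n = 5 each; 0.71, adjusted p = 0.00218). In Lmo2tg DN2/3 against wild type, where 15.1% of all genes were higher and 14.4% lower, homologous recombination had 3 of 14 lower, alternative end joining 1 of 7 higher and 2 lower, the accessory genes 1 of 10 higher and 1 lower, break sensing 0 of 12 called and the cell cycle 1 of 20 higher.

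RAG1 and RAG2 work with the DNA-bending proteins HMGB1 and HMGB2, and DCAF1, DDB1 and CUL4A are known from a ubiquitin ligase that RAG1 binds. Of these 5 genes, 2 were higher in Lmo2tg DN2/3 than in wild type, where 15.1% of all genes were higher: Hmgb1 (0.78, SE 0.159, edgeR adjusted p = 0.00045) and Hmgb2 (0.67, SE 0.220, adjusted p = 0.0231), opposite in direction to Rag1 and Rag2. In DN4, 4 of the 5 were lower in Lmo2tg than in wild type, where 23.5% of all genes were lower.

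Of 17 transcription factors reported to act on the Rag genes, 7 were higher and 1 was lower in Lmo2tg DN2/3 than in wild type, where 15.1% of all genes were higher and 14.4% lower. The smallest adjusted p-values belonged to Tcf7 (log2 fold 0.54, edgeR adjusted p = 8.76e-06), Tcf12 (0.47, adjusted p = 0.000569) and Lef1 (1.11, adjusted p = 0.00147). In Ldb1-KO against Lmo2tg DN2/3, where 8.87% of all genes were higher and 7.22% lower, 4 were lower, led by Gfi1 (-0.53, adjusted p = 9.46e-05) and Tcf7 (-0.39, adjusted p = 0.000468), and 1 was higher, Id3 (1.02, adjusted p = 0.00206), an inhibitor of E proteins. In DN4, 10 of the 17 were higher in Lmo2tg than in wild type, where 28.9% of all genes were higher, and 4 were lower in Ldb1-KO than in Lmo2tg, where 8.71% were lower. Zfp608, reported as a repressor of the Rag genes in thymocytes, had the largest log2 fold of the 17 in Lmo2tg DN4 against wild type: 1.18 ± 0.761 CPM in wild-type DN4 (n = 4), 28.4 ± 10.03 in Lmo2tg DN4 and 6.9 ± 3.04 in Ldb1-KO DN4 (SD, n = 5 each). Its log2 fold was 4.59 (adjusted p = 3.70e-09) in Lmo2tg against wild type and -2.05 (adjusted p = 0.000116) in Ldb1-KO against Lmo2tg. In DN2/3 it had 10.4 ± 1.21 CPM in wild type (n = 4), 24.7 ± 5.63 in Lmo2tg and 16.7 ± 3.15 in Ldb1-KO (n = 5 each), a log2 fold of 1.25 in Lmo2tg against wild type (adjusted p = 0.00674) and of -0.57 in Ldb1-KO against Lmo2tg (adjusted p = 0.242). From DN2/3 to DN4 in wild type, Zfp608 fell by 3.14 on the log2 scale (edgeR adjusted p = 1.17e-06), and Rag2 was also lower in DN4. The part of Zfp608 or of the other factors in the Rag1 and Rag2 levels was not tested.

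The genes most alike in level to 4 of the members were sought by Spearman correlation over the 28 libraries among 9501 genes that reached a mean of 5 CPM. These correlations share the 6 groups and the libraries, and are a description. Rag2 was most like Bbs4 (0.891), Zfp961 (0.887) and Zak (0.876). Zak followed the same order of groups in DN2/3, at 17.9 ± 0.588 CPM in wild type, 0.217 ± 0.185 in Lmo2tg and 8.49 ± 2.33 in Ldb1-KO. Dntt was most like Lman2l (0.937), Kank2 (0.933) and Fer1l5 (0.928), and Prkdc most like Mga (0.929), Dmxl1 (0.917) and Epm2aip1 (0.917). Rag1 had less close matches, Vps26b (0.768), Rab3ip (0.711) and Mtf1 (0.706). Within the 10 genes, Rag1 and Rag2 correlated at 0.62, Prkdc and Lig4 at 0.72, and Xrcc5 and Xrcc6 at -0.08.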

How the data were processed

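RNA was sequenced in 28 samples; per the labels' protocols, libraries were made with a TruSeq V2 kit and read as paired ends of 101 bases. Per the submitters' processing notes, reads were aligned to mm10 with STAR 2.5.2a and counted with featureCounts 1.4.6-p3. What the authors deposited is a table of unnormalized counts by gene symbol, in which 0 columns lacked a sample; the annotation, strand setting and treatment of reads with several matches were not given in the sources used here. The labels give 5 Ldb1-KO samples per stage where the design text gives 4, and the labels were followed.

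A single model of 6 groups was fitted to the counts with edgeR 4.0.16 under R 4.3.3 (TMM, filterByExpr by group, robust quasi-likelihood F-test, two-sided). Of 24421 symbols, 14371 were tested, the 10 genes among them, in 12 comparisons, with Benjamini-Hochberg adjustment over all genes tested. A gene is called at an adjusted p below 0.05. CPM uses TMM-scaled totals, factors 0.93 to 1.056; total counts per library of 28.1 to 106.9 M set the precision. Exon lengths and positions are from GENCODE M21. The members and the gene lists were chosen with earlier results of these data known. Named genes are the 10, Lmo2, Ldb1, head-to-head neighbours within 1000 bases, up to 3 of each list by smallest adjusted p, and the 3 most alike by Spearman correlation; Desi1, Suv39h2, Cd4, Cd8a, Il2ra and Trp53bp1 fall outside this rule and were chosen after their values were seen. Of the lists, Cyren, Dcaf1 and Iftap were matched by older symbols and Paxx was not matched.

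Replicate numbers are shared between groups. Same-numbered DN2/3 and DN4 samples deviated together within each genotype, with correlations of their deviations of 0.153 to 0.332 in wild type (4 pairs), 0.513 to 0.65 in Lmo2tg (5 pairs) and 0.289 to 0.531 in Ldb1-KO (5 pairs). This pairing comes from the data, not from a label, and different-numbered samples were not compared. Same-numbered Lmo2tg and Ldb1-KO samples of the same stage had -0.075 to 0.338, above 0.1 in 5 of 10 pairs. Those of wild type had -0.179 to 0.01 with Lmo2tg and -0.101 to 0.097 with Ldb1-KO. No 2 replicates were copies (lowest chi-square per degree of freedom 27.1). Alternatives were RLE factors, DESeq2 1.42.0, no low-count filter, only the compared groups, replicate blocks, leaving out each library, and leaving out both Cd4-rich DN4 libraries, the last chosen after seeing the data. The scripts were tested on simulated data. One result of a gene list is not reported here.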

Additional observations from a re-analysis of the deposited data

Results flagged for a closer look

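In 6 of 60 combinations of gene and group, 1 library lay far from the others of its group by Dixon's criterion; chance gives about 1 in 20 such flags. Rag1 stood at 1129 CPM in replicate 1 of Lmo2tg DN4, where the other 4 libraries had 341 to 502 CPM. In replicate 2 of Ldb1-KO DN4, Rag1 was at 853 CPM (others 258 to 383) and Rag2 at 86.6 CPM (others 33.5 to 47.0). Both libraries had the most Cd4 RNA of their groups, and the part of double-positive cells was not tested. Dntt was low in replicate 1 of wild-type DN2/3, at 2357 CPM against 2759.9 to 2791. Xrcc5 was low in replicate 4 of wild-type DN2/3, at 58.8 CPM against 66.0 to 67.4. Xrcc6 was low in replicate 5 of Lmo2tg DN2/3, at 582 CPM against 735 to 783.

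For 2 of the 10 genes the effect of Lmo2tg against wild type differed between DN4 and DN2/3 by a test of the difference itself in edgeR. Of all genes, 25.6% were called in that test. The difference, DN4 minus DN2/3 on the log2 scale, was 1.37 for Rag2 (adjusted p = 0.0414) and 1.07 for Dclre1c (adjusted p = 0.0206). The Rag2 call was lost in 11 of 18 fits that left out 1 library, and the Dclre1c call in 2 of 18. Neither passed when only the groups concerned were fitted.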

How the results depend on the processing

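Over the log2 folds of the 10 genes, 1988 values under an alternative kept their side of the threshold, 59 gained a call, 93 lost one and 0 changed the sign of a called value. A value uncalled in both fits counts among the 1988 even where its sign changed. Rag1 in Lmo2tg against wild type in DN4 changed sign in 5 of 15 alternatives, and Rag2 between the stages of Ldb1-KO in 7 of 17. RLE factors changed no count of called genes by over 1.5 times. The counts that moved were, by setting, as follows. With the replicate number as a block shared by all groups, Lmo2tg against wild type in DN2/3 gave 5, where 34.9% of all genes were called. The stage difference of the Lmo2tg effect gave 4 (34.0% of all genes). Same-numbered wild-type and transgenic samples had no correlation of deviations above 0.1. With the replicate block within genotype, the stage comparisons gave 7 (wild type), 4 (Lmo2tg) and 4 (Ldb1-KO), and the stage differences 8 (Lmo2tg effect), 1 (Ldb1-KO effect on Lmo2tg, Dntt) and 4 (Ldb1-KO against wild type). Of all genes, 62.1%, 38.8% and 48.2% were called in those stage comparisons, and 49.4%, 13.5% and 19.6% in those differences. Without a low-count filter, Ldb1-KO against Lmo2tg in DN4 gave 1, Ldb1-KO against wild type in DN4 gave 2 and the stage difference of the Lmo2tg effect 1. With only the compared groups, the counts were 0 for Ldb1-KO against Lmo2tg in DN4, 0 for the stage difference of the Lmo2tg effect and 1 for that of Ldb1-KO against wild type. There 5.2%, 15.2% and 12.4% of all genes were called. DESeq2 gave 2 for the stage comparison in Lmo2tg, where it called 18.8% of all genes. Without both Cd4-rich libraries, Ldb1-KO against Lmo2tg in DN4, Ldb1-KO against wild type in DN4 and the stage difference of the Lmo2tg effect each gave 1, beside 10.1%, 27.2% and 17.1% of all genes. The cause was not tested.

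Leaving out 1 library gave 2 to 5 called genes for Lmo2tg against wild type, 1 to 2 for Ldb1-KO against Lmo2tg and 2 for Ldb1-KO against wild type in DN2/3. Over all genes, the same fits called 3514 to 4229, 1730 to 2376 and 764 to 1406. In DN4 the ranges were 4 to 7, 0 to 2 and 0 to 3, beside 6478 to 8336, 1476 to 2866 and 2855 to 5028 of all genes. The stage comparisons gave 2 to 4 in wild type, 1 to 3 in Lmo2tg and 1 in Ldb1-KO, the stage difference of the Lmo2tg effect 0 to 5, and both other differences 0. Counts over all genes were 5671 to 6244, 1577 to 3450 and 3116 to 3983 for the stage comparisons. For the stage differences they were 2412 to 5411 (Lmo2tg effect), 139 to 624 (Ldb1-KO effect on Lmo2tg) and 6 to 47 (Ldb1-KO against wild type). On plain totals, 3 of 60 group means moved by over 1 SD.

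Counts over all genes that moved by over 1.5 times were as follows. With only the compared groups they went from 1374 to 3037 (Ldb1-KO against wild type, DN2/3), from 7532 to 4947 (Lmo2tg against wild type, DN4), from 2092 to 681 (Ldb1-KO against Lmo2tg, DN4), from 2208 to 321 (stage in Lmo2tg), from 3684 to 2146 (stage difference of the Lmo2tg effect), from 195 to 85 (that of the Ldb1-KO effect on Lmo2tg) and from 31 to 1737 (that of Ldb1-KO against wild type). The replicate block gave 2449 for Ldb1-KO against wild type in DN2/3 and 134 for its stage difference. With the block within genotype, the stage comparisons in Lmo2tg and Ldb1-KO gave 5569 and 6934 (from 2208 and 4039), and the 3 stage differences 7106, 1933 and 2811. DESeq2 gave 390 and 284 for the last 2 of these. Without the Cd4-rich libraries the 3 stage differences gave 2446, 94 and 89.
Leaving out 1 library moved the count over all genes by over 1.5 times at an end of the range for Ldb1-KO against wild type in DN2/3 (764 to 1406) and DN4 (2855 to 5028), for the stage comparison in Lmo2tg (1577 to 3450) and for the 3 stage differences (2412 to 5411, 139 to 624 and 6 to 47).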
